A study of Mus musculus with 88 samples.

Results

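Sox7, Dab2, Amn, Cubn, Apoa1, Apoe, Ttr and Afp are 8 genes that mark extraembryonic endoderm, and above all visceral endoderm, in the early mouse embryo. They were chosen by name, as markers of this tissue, with earlier results of these data known. Counts of members called, set beside the share of all genes, are therefore descriptions. They make up 8 of the 53697 genes in the mesoderm count table, of the 54393 in the endoderm count table, of the 26007 in the bulk embryoid body table and of the 15830 in the single-cell table. The study removed subunits of Polycomb repressive complex 2 (PRC2), which places the repressive mark H3K27me3 on chromatin, from mouse embryonic stem cells (ESCs) and followed their exit from pluripotency. Wild-type E14 ESCs (strain 129/Ola, serum with LIF), Mtf2 null cells (homozygous gene trap, Mtf2GT/GT) and Jarid2 null cells (Jarid2-/-) were driven in monolayer toward mesoderm or toward endoderm and sequenced in bulk. Samples were taken from undifferentiated cells and at 5, 24 and 48 h, with 2 libraries for each genotype, time and direction. Mesoderm cultures received Activin A, BMP4, CHIR99021 and FGF2 for 24 h and then A-83-01 with BMP4, and endoderm cultures Activin A, CHIR99021 and FGF2 for 24 h and then Activin A with DM3189. Embryoid bodies (free-floating aggregates that differentiate without added lineage factors) were sequenced in bulk on days 0, 2, 4 and 7 for the lines labelled Mtf2 null, Jarid2 null and Eed null (Eed-/-) and for 3 wild-type lines, labelled Pcl1-3 wt, JM8 and J1. They were also sequenced as single live-sorted cells on days 0, 4, 7 and 10 for the wild type and the 3 null genotypes. By the methods, day 0 was the undifferentiated state. The bulk columns of day 0 are named mono, and those of later days eb. Each null genotype was a single line. The methods name wild-type lines matched in background to each null line, but the directed series and the single cells hold E14 as the wild type. Line background and genotype therefore cannot be told apart there. Each pair of bulk embryoid body lines also sets a single line against a single line. Genotype and other differences between those lines cannot be told apart either.

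Visceral endoderm is the absorptive epithelium that surrounds the early epiblast and later lines the yolk sac, and it arises from the primitive endoderm of the blastocyst together with parietal endoderm. Its cells take up maternal proteins by endocytosis and secrete the plasma proteins that the liver makes later in life. The 8 genes cover these roles: Sox7 is a SOX-family transcription factor of primitive and parietal endoderm that vascular endothelium also uses, Dab2 is an endocytic adaptor, Cubn (cubilin) and Amn (amnionless) form the cubam receptor for vitamin B12 and proteins, Apoa1 and Apoe are apolipoproteins, and Ttr (transthyretin) and Afp (alpha-fetoprotein) are secreted carrier proteins. Many other cell types, among them undifferentiated ESCs and macrophages, also express Apoe.

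In GRCm38 coordinates, Sox7 lies at chr14:63943673-63950732 on the plus strand, Dab2 at chr15:6299788-6440712 (plus), Amn at chr12:111271095-111276426 (plus), Cubn at chr2:13276338-13491813 (minus), Apoa1 at chr9:46228580-46230466 (plus), Apoe at chr7:19696109-19699188 (minus) and Afp at chr5:90490737-90508907 (plus). All are protein-coding. The RefSeq promoter table (GRCm38.p6; each window runs from 250 bases before to 50 after a start) matched 6 of the 8 genes with 9 windows; it held no entry for Sox7 and Ttr. The upstream 250 bases of 5 windows are printed 5′ to 3′ on the strand of the gene, because Dab2, Amn and Cubn were higher together in Mtf2 null cells of the directed series, whereas Apoa1 and Afp reached more than a few counts only in embryoid bodies: Dab2 at chr15:6299539-6299788, Amn at chr12:111270846-111271095, Cubn at chr2:13491877-13492126, Apoa1 at chr9:46228380-46228629 and Afp at chr5:90490464-90490713. Capitals mark matches to 7 short motifs, searched on both strands. For the factors of the GATA family these were TGATAA in one form, found in 9.05% of all 32851 windows, or AGATAA in the other, in 11.2%. The forkhead family was searched as TGTTTAC in one spelling, in 3.65% of windows, or TGTTTGC in the other, in 5.07%. The remaining letters were ACAATGG for SOX factors (3.66%), CAAAGTCCA for the nuclear receptor HNF4 (0.475%) and TATAAA for the TATA box (13.6%).

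Dab2: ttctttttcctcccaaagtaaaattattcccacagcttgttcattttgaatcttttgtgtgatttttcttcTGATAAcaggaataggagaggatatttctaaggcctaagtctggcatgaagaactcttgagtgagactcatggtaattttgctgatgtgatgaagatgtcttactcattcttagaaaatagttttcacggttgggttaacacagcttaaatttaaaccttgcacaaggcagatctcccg
Amn: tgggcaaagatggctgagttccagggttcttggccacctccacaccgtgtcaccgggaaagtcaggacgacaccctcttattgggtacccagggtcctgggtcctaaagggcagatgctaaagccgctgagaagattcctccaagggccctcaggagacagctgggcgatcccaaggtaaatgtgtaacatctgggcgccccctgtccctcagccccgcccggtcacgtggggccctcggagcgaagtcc
Cubn: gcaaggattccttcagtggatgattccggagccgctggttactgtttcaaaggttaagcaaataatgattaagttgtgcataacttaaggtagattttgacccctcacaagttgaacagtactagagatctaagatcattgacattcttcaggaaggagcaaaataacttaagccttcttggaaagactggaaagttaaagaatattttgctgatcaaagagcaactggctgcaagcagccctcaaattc
Apoa1: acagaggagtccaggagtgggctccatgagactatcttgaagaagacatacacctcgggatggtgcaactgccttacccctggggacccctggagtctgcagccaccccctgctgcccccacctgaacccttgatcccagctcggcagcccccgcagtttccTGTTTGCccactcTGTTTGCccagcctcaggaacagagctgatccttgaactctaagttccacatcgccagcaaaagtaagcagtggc
Afp: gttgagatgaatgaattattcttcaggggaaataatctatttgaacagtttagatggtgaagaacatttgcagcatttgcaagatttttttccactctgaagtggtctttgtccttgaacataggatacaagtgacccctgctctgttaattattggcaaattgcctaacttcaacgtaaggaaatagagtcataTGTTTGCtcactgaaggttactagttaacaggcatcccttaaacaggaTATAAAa

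Motif positions are counted from 1 at the 5′ end of the window. The printed Dab2 window held the GATA match TGATAA at position 72, and AGATAA on the opposite strand at 265, past the printed stretch in the 50 bases after the start. The other Dab2 window, with its upstream bases at chr15:6386498-6386747, held no match. Apoa1 held the forkhead match at positions 163 and 176 and, likewise past the printed stretch, TGATAA on the opposite strand at 266. Afp held the forkhead match TGTTTGC at position 196 and the TATA box letters at 244. No motif was found in the Amn and Cubn windows. These matches describe the letters of the windows only.

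Library totals ran from 9111880 to 16898264 counts in the mesoderm series, from 9889592 to 16372804 in the endoderm series and from 3005707 to 22944105 reads in the bulk embryoid bodies, and single cells held 1143 to 105019 unique molecules (UMIs), with a median of 6650. In the directed series Mtf2 was at 30.2 to 38.2 CPM (counts scaled to the size of the library) in Mtf2 null libraries and at 206 to 509 CPM in wild type. The Jarid2 transcript was at 189 to 622 CPM in Jarid2 null and 307 to 661 CPM in wild-type libraries, and does not check the Jarid2 null label there. In single cells, levels are UMI CPM, the UMIs of a gene scaled to all UMIs. Eed was at 1.33 to 11.5 in Eed null and 115 to 478 in wild-type libraries. Mtf2 was at 53.7 to 61.1 in Mtf2 null and 365 to 793 in wild type, and Jarid2 at 115 to 185 in Jarid2 null and 215 to 594 in wild type. In the bulk embryoid bodies, Eed in the line labelled Eed null (109, 205, 107 and 58.8 CPM on days 0, 2, 4 and 7) was below J1 (103, 246, 78.5 and 52.9 CPM) on day 2 and above it on the other days. Mtf2 was at 324, 227, 232 and 166 CPM in the line labelled Mtf2 null, below Pcl1-3 wt (413, 433, 316 and 385 CPM) on every day but far above the directed Mtf2 null libraries, and on days 0 and 4 above the line labelled Jarid2 null (129, 415, 183 and 173 CPM). Jarid2 was at 603, 676, 247 and 223 CPM in the line labelled Jarid2 null. In JM8 it was at 507, 636, 272 and 322 CPM, so this transcript does not check that label. These lines are called by their labels throughout. Values are also given without day 0, which does not settle the labels. The undifferentiated libraries of both directed series were not independent: the differences between libraries 1 and 2 correlated across genes between the series (r = 0.56 for Mtf2 null, 0.61 for wild type and 0.61 for Jarid2 null, over 10420 to 10907 genes), against -0.49 to 0.41 at the later times. The methods describe the duplicates as technical replicates, so that p-values here measure only the spread between such libraries, which may be technical.

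Loss of Mtf2 went with higher levels of Sox7, Dab2, Amn, Cubn and Apoe at nearly every time, in undifferentiated cells and under both treatments. Differences are given as the log2 fold change ± its standard error (SE) from edgeR's quasi-likelihood test on all genes of a series with Benjamini-Hochberg adjustment, and a gene was called when the adjusted p was under 0.001 and the log2 fold change beyond 1 in size. In the mesoderm series 5 members were called higher in Mtf2 null than in wild-type cells at each time, undifferentiated and at 5, 24 and 48 h, where 6.47%, 3.45%, 2.78% and 3.76% of all tested genes were called higher. In the endoderm series 5, 4, 5 and 5 members were called higher, beside 6.23%, 3.57%, 3.57% and 6.37% of all genes. No member was called lower. Sox7, Dab2, Amn, Cubn and Apoe passed the filter on low counts in every fit; Ttr passed it only through the Mtf2 null libraries of 48 h, so it had to differ and is left out of these counts, and Apoa1 and Afp, with at most 6 counts in any library, did not pass it. The levels of all 8 genes in each library stand in the plot by genotype and time.

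**Figure D1:**
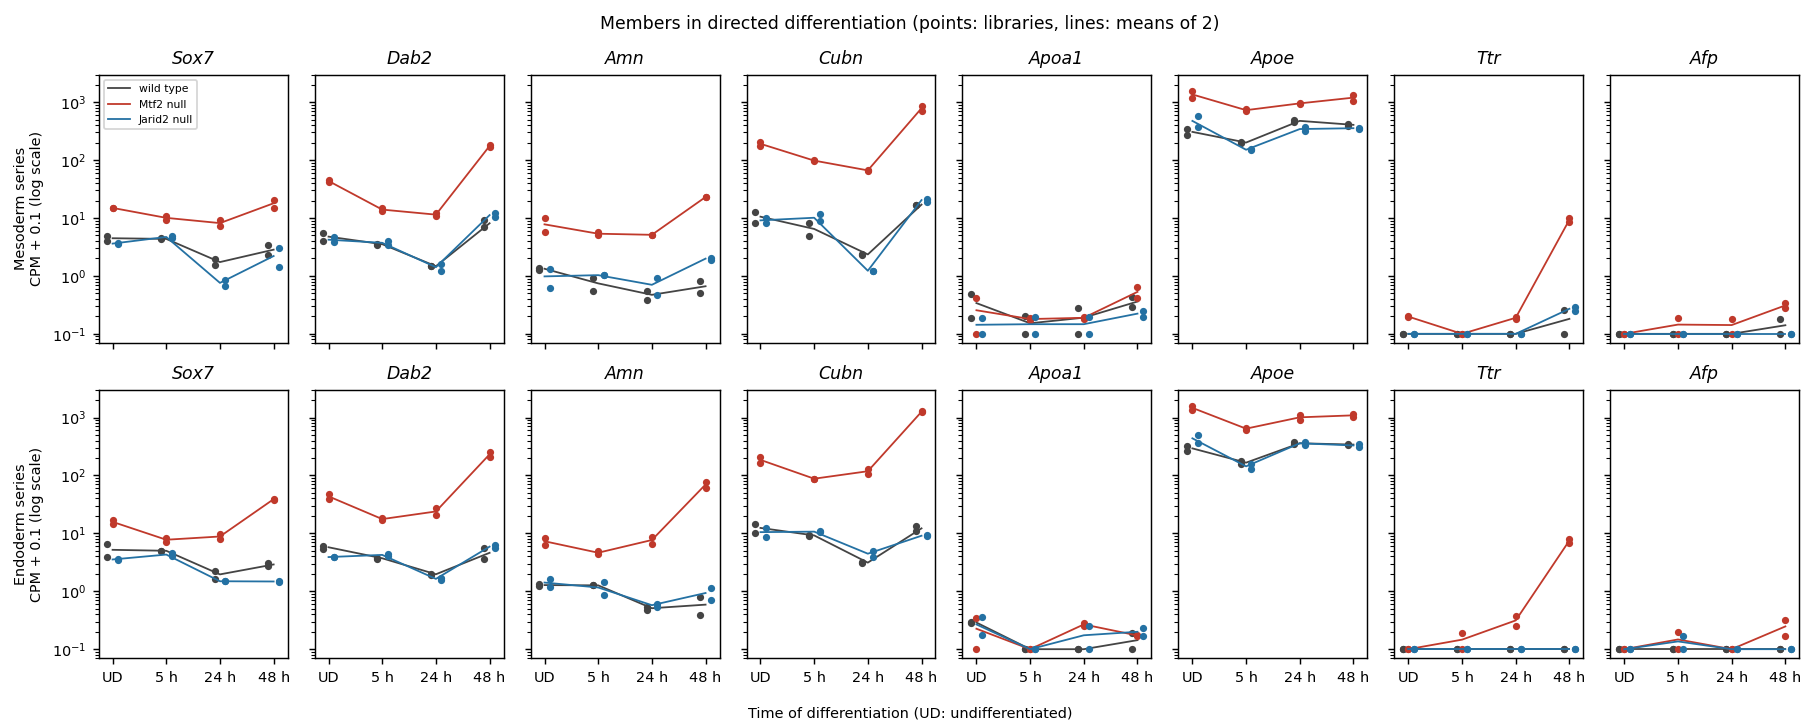
Level of each of the 8 genes (CPM with 0.1 added, log axis) in the mesoderm and endoderm series by time, in cells of the wild type, the Mtf2 null and the Jarid2 null; points are single libraries and lines join the means of 2 libraries. The Mtf2 null points of Sox7, Dab2, Amn, Cubn and Apoe lie above those of the other genotypes at every time, while Apoa1 and Afp stay near 0 in all libraries.

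Sox7, the transcription factor, was low in wild-type cells and several-fold higher in Mtf2 null cells. In mesoderm cultures the Mtf2 null libraries 1 and 2 held 14.7 and 15.0 CPM undifferentiated, 10.7 and 9.24 CPM at 5 h, 9.03 and 7.11 CPM at 24 h and 15.0 and 20.8 CPM at 48 h. Wild-type libraries of Sox7 were at 4.83 and 3.92 CPM undifferentiated, 4.34 and 4.18 CPM at 5 h, 1.45 and 1.82 CPM at 24 h and 2.22 and 3.26 CPM at 48 h. All Mtf2 null libraries were higher than all wild-type libraries of their time, with the smallest gap at 5 h. The log2 fold change of Sox7 was 1.77 ± 0.25 in undifferentiated cells, 1.22 ± 0.25 at 5 h, 2.28 ± 0.29 at 24 h and 2.72 ± 0.25 at 48 h. The edgeR adjusted p were 1.02e-05, 9.41e-04, 5.12e-06 and 8.11e-08. In endoderm cultures Sox7 in Mtf2 null cells was at 17.0 and 14.4 CPM undifferentiated, 8.22 and 7.10 CPM at 5 h, 9.69 and 7.76 CPM at 24 h and 38 and 39.7 CPM at 48 h. Wild-type cells had 6.35 and 3.84 CPM undifferentiated, 4.94 and 4.86 CPM at 5 h, 2.18 and 1.53 CPM at 24 h and 2.69 and 2.92 CPM at 48 h. Again no Mtf2 null library overlapped the wild-type libraries of its time, and the 48 h libraries stood highest. The endoderm log2 fold changes of Sox7 were 1.62 ± 0.19, 0.64 ± 0.20, 2.23 ± 0.22 and 3.79 ± 0.20 in the same order. Their edgeR adjusted p were 7.86e-07, 0.0186, 1.07e-07 and 2.83e-12. At 5 h the endoderm value did not pass the threshold, and the mesoderm call at 5 h was lost when the replicate number was a block, under upper-quartile scaling and without each of the 4 libraries compared. At 48 h of endoderm treatment the mean level was 13.9 times that of wild type.

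Dab2, the adaptor that brings receptors of the LDL family and cubilin into clathrin-coated pits, differed more. In mesoderm cultures the Mtf2 null libraries 1 and 2 held 42 and 44.9 CPM undifferentiated, 14.6 and 13.2 CPM at 5 h, 11.9 and 10.8 CPM at 24 h and 183 and 167 CPM at 48 h. Wild-type libraries of Dab2 were at 5.42 and 3.92 CPM undifferentiated, 3.52 and 3.34 CPM at 5 h, 1.36 and 1.39 CPM at 24 h and 9.02 and 7.01 CPM at 48 h. Every Mtf2 null library was above every wild-type library of the series. The log2 fold change of Dab2 was 3.23 ± 0.16 in undifferentiated cells, 2.01 ± 0.18 at 5 h, 3.03 ± 0.21 at 24 h and 4.44 ± 0.15 at 48 h. The edgeR adjusted p were 4.96e-12, 4.21e-08, 1.05e-09 and 1.28e-14. In endoderm cultures Dab2 in Mtf2 null cells was at 39.8 and 47.1 CPM undifferentiated, 16.7 and 18.3 CPM at 5 h, 27.1 and 20.4 CPM at 24 h and 252 and 211 CPM at 48 h. Wild-type cells had 5.30 and 6.00 CPM undifferentiated, 3.71 and 3.52 CPM at 5 h, 1.82 and 1.92 CPM at 24 h and 5.54 and 3.48 CPM at 48 h. The order of the groups was the same, and the Mtf2 null libraries of 48 h again stood far above the rest. The endoderm log2 fold changes of Dab2 were 2.94 ± 0.17, 2.27 ± 0.19, 3.66 ± 0.20 and 5.67 ± 0.17 in the same order. Their edgeR adjusted p were 1.67e-11, 7.69e-09, 7.59e-12 and 3.08e-16. Mean levels at 48 h were 21.9 times the wild-type mean after mesoderm and 51.2 times after endoderm treatment.

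Cubn, which codes for the large ligand-binding chain of the cubam receptor, differed more than Sox7, Dab2 and Apoe at every time. In mesoderm cultures the Mtf2 null libraries 1 and 2 held 176 and 206 CPM undifferentiated, 101 and 95.2 CPM at 5 h, 67.2 and 65.5 CPM at 24 h and 713 and 858 CPM at 48 h. Wild-type libraries of Cubn were at 12.6 and 8.26 CPM undifferentiated, 7.95 and 4.81 CPM at 5 h, 2.17 and 2.33 CPM at 24 h and 17.0 and 16.9 CPM at 48 h. The groups did not overlap at any time. The log2 fold change of Cubn was 4.20 ± 0.19 in undifferentiated cells, 3.92 ± 0.20 at 5 h, 4.87 ± 0.23 at 24 h and 5.53 ± 0.19 at 48 h. The edgeR adjusted p were 1.07e-12, 8.30e-12, 2.55e-12 and 1.72e-14. In endoderm cultures Cubn in Mtf2 null cells was at 164 and 206 CPM undifferentiated, 87.3 and 88.1 CPM at 5 h, 128 and 108 CPM at 24 h and 1272 and 1240.2 CPM at 48 h. Wild-type cells had 14.6 and 10.0 CPM undifferentiated, 9.34 and 8.88 CPM at 5 h, 2.98 and 3.07 CPM at 24 h and 13.2 and 11.0 CPM at 48 h. The lowest Mtf2 null library was several times higher than the highest wild-type library of the series. The endoderm log2 fold changes of Cubn were 3.91 ± 0.17, 3.26 ± 0.17, 5.28 ± 0.20 and 6.69 ± 0.18 in the same order. Their edgeR adjusted p were 1.52e-13, 5.28e-12, 1.30e-14 and 5.67e-17. The mean at 48 h was 46.4 times the wild-type mean in the mesoderm and 104 times in the endoderm series.

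Amn codes for the membrane anchor with which cubilin reaches the cell surface, and was close to the limit of detection in wild-type cells. In mesoderm cultures the Mtf2 null libraries 1 and 2 held 5.6 and 9.75 CPM undifferentiated, 5.61 and 4.90 CPM at 5 h, 5.04 and 5.02 CPM at 24 h and 22.5 and 23.3 CPM at 48 h. Wild-type libraries of Amn were at 1.2 and 1.28 CPM undifferentiated, 0.452 and 0.836 CPM at 5 h, 0.452 and 0.292 CPM at 24 h and 0.719 and 0.408 CPM at 48 h. The Mtf2 null libraries were higher than the wild-type libraries throughout. The log2 fold change of Amn was 2.62 ± 0.34 in undifferentiated cells, 3.03 ± 0.39 at 5 h, 3.75 ± 0.42 at 24 h and 5.29 ± 0.35 at 48 h. The edgeR adjusted p were 3.68e-06, 6.04e-06, 1.18e-06 and 4.89e-10. In endoderm cultures Amn in Mtf2 null cells was at 6.27 and 8.14 CPM undifferentiated, 4.82 and 4.24 CPM at 5 h, 8.58 and 6.56 CPM at 24 h and 78.2 and 61 CPM at 48 h. Wild-type cells had 1.23 and 1.12 CPM undifferentiated, 1.16 and 1.17 CPM at 5 h, 0.436 and 0.383 CPM at 24 h and 0.693 and 0.283 CPM at 48 h. The groups did not overlap, and the Mtf2 null libraries of 48 h stood further above the rest than in the mesoderm series. The endoderm log2 fold changes of Amn were 2.60 ± 0.30, 1.95 ± 0.31, 4.17 ± 0.33 and 7.11 ± 0.29 in the same order. Their edgeR adjusted p were 4.40e-07, 4.24e-05, 3.71e-09 and 3.75e-14. Counts in the wild-type libraries were low, at 3 to 15 per library, and the endoderm call at 5 h was lost without either wild-type library of that time.

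Apoe, an apolipoprotein that ESCs themselves express, had the highest level of the members in wild-type cells, with log2 fold changes of 1.00 to 2.32. In mesoderm cultures the Mtf2 null libraries 1 and 2 held 1188 and 1530.3 CPM undifferentiated, 706 and 749 CPM at 5 h, 924 and 982 CPM at 24 h and 1347 and 1048 CPM at 48 h. Wild-type libraries of Apoe were at 342 and 271 CPM undifferentiated, 193 and 208 CPM at 5 h, 489.9 and 461 CPM at 24 h and 419 and 392.3 CPM at 48 h. Mtf2 null libraries were higher at every time, and levels of both genotypes were lowest at 5 h. The log2 fold change of Apoe was 2.15 ± 0.18 in undifferentiated cells, 1.86 ± 0.18 at 5 h, 1.00 ± 0.17 at 24 h and 1.56 ± 0.18 at 48 h. The edgeR adjusted p were 1.11e-08, 1.18e-07, 2.12e-04 and 1.00e-06. In endoderm cultures Apoe in Mtf2 null cells was at 1350.2 and 1585 CPM undifferentiated, 665 and 618 CPM at 5 h, 1100.3 and 914 CPM at 24 h and 1165 and 1016 CPM at 48 h. Wild-type cells had 323 and 263 CPM undifferentiated, 158 and 174 CPM at 5 h, 370.2 and 348 CPM at 24 h and 351 and 331 CPM at 48 h. The groups did not overlap here either. The endoderm log2 fold changes of Apoe were 2.32 ± 0.16, 1.95 ± 0.15, 1.49 ± 0.15 and 1.68 ± 0.15 in the same order. Their edgeR adjusted p were 1.63e-10, 3.49e-09, 1.50e-07 and 1.54e-08. The mesoderm call at 24 h, whose log2 fold change lies at the limit of 1, was lost without each of the 4 libraries compared.

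Ttr, the thyroxine and retinol carrier, appeared only late and almost only in Mtf2 null cells. At 48 h it had 9.90 and 8.56 CPM in the Mtf2 null libraries of the mesoderm series and 8.01 and 6.84 CPM in those of the endoderm series. Summed over both libraries this was 217.0 counts against 2.0 in wild type for mesoderm, and 205.0 against 0.0 for endoderm. The wild-type endoderm libraries allow a level of up to 0.271 CPM (3 counts per library), so Ttr was at least 27.4-fold higher in Mtf2 null cells there. Apoa1, the main protein of high-density lipoprotein, and Afp, the fetal counterpart of albumin, stayed at the limit of detection: at 48 h Apoa1 had 10.0 counts in the Mtf2 null and 7.0 in the wild-type mesoderm libraries, and Afp 5.0 and 1.0, so that differences between genotypes were not detectable at this depth. Of these 3 secreted proteins, Ttr alone reached several CPM within 48 h.

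**Figure D2:**
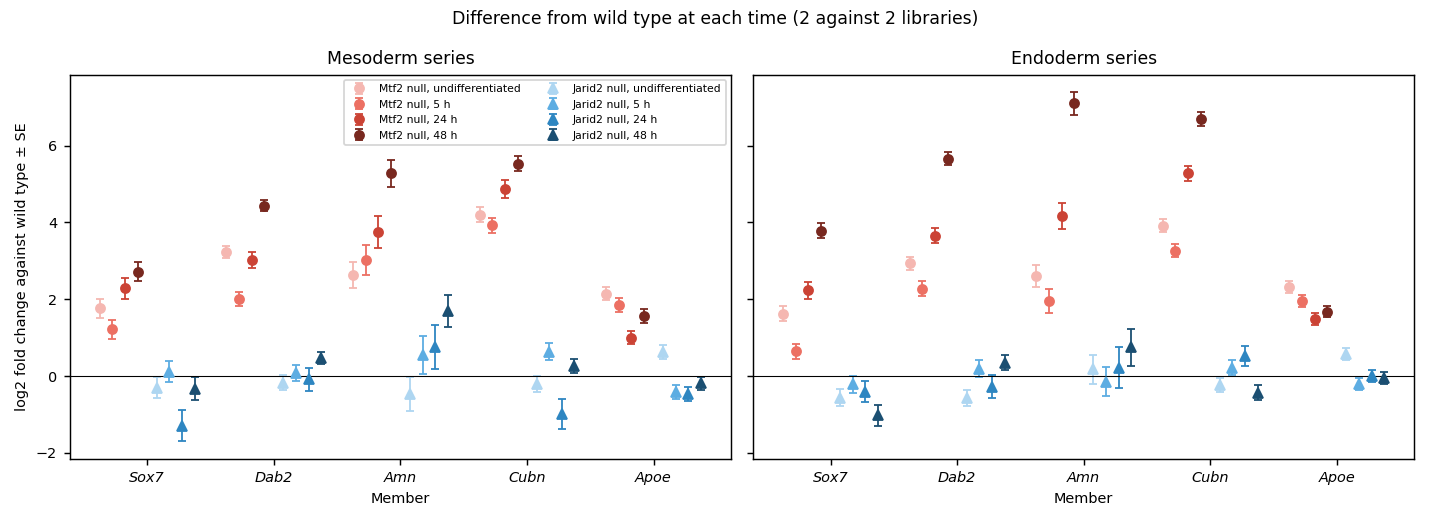
Log2 fold change (± SE, from edgeR) of Sox7, Dab2, Amn, Cubn and Apoe in Mtf2 null and Jarid2 null against wild-type cells at each time in both directed series. The Mtf2 null values lie above 0 throughout and reach 7.11 for Amn at 48 h of endoderm treatment; the Jarid2 null values lie on both sides of 0.

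Per kilobase of exon, which makes genes comparable within a sample, Apoe led by far. In Mtf2 null cells at 48 h of endoderm treatment it stood at 509.9 CPM per kb, followed by Cubn at 84.1, Amn at 37.8, Dab2 at 31.5, Sox7 at 11.8 and Ttr at 6.26 CPM per kb (means of 2 libraries). Amn and Dab2 are neighbours in this order whose library values overlap. In undifferentiated wild-type cells of the endoderm series, Apoe was at 137 CPM per kb, Sox7 at 1.54, Cubn at 0.824, Dab2 at 0.770 and Amn at 0.639, where the libraries of Cubn and Dab2 overlapped and those of Amn lay just below both. Sox7 thus came next after Apoe in wild-type cells, but after Dab2 in the Mtf2 null cells of 48 h.

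The difference was present before any treatment. When the undifferentiated libraries of both series entered 1 fit with a term for the series, 5 of the 8 members were tested and the same 5 were called higher in Mtf2 null cells, beside 8.11% of all genes. Log2 fold changes were 1.70 ± 0.14 for Sox7, 3.08 ± 0.12 for Dab2, 2.62 ± 0.27 for Amn, 4.06 ± 0.15 for Cubn and 2.25 ± 0.15 for Apoe. Because same-numbered libraries of the series deviated together, those p-values are too small; with such libraries summed, leaving 2 against 2, all 5 were still called, at 1.74 ± 0.21, 3.13 ± 0.17, 2.66 ± 0.33, 4.10 ± 0.22 and 2.29 ± 0.23.

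Over time, the members did not follow a single course. In wild-type cells Cubn fell between 5 and 24 h under both treatments (-1.51 ± 0.28 in mesoderm and -1.59 ± 0.23 in endoderm, log2), together with Dab2 in mesoderm (-1.32 ± 0.25) and Sox7 in endoderm (-1.41 ± 0.23); these were 2 members called lower in each series, beside 0.920% and 0.737% of all genes. Apoe rose in the same interval, by 1.24 ± 0.18 in mesoderm and 1.11 ± 0.15 in endoderm, where 3.49% and 1.76% of all genes were called higher. Between 24 and 48 h Dab2 and Cubn rose again, by 2.55 ± 0.21 and 2.90 ± 0.24 in mesoderm and by 1.28 ± 0.25 and 2.00 ± 0.22 in endoderm, while 2.41% and 2.20% of all genes were called higher. Their 48 h levels in wild-type cells were of the order of the undifferentiated ones.

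Mtf2 null cells began with a fall as well. From the undifferentiated state to 5 h, Dab2 dropped in mesoderm (-1.65 ± 0.14; 3.89% of all genes were called lower), and Sox7, Dab2, Cubn and Apoe dropped in endoderm (-1.04 ± 0.18, -1.31 ± 0.15, -1.08 ± 0.14 and -1.19 ± 0.15; 2.19%). From 24 to 48 h, Dab2, Amn and Cubn were called higher in mesoderm and Sox7, Dab2, Amn and Cubn in endoderm (Ttr left out as above), beside 2.29% and 2.94% of all genes. The rise of Dab2 was 3.95 ± 0.14 and 3.29 ± 0.14 in the mesoderm and endoderm series, that of Cubn 3.57 ± 0.17 and 3.41 ± 0.15, and that of Amn 2.19 ± 0.27 and 3.21 ± 0.20. This carried the cubam genes well past their undifferentiated level: 3 members in mesoderm and 4 in endoderm were called higher at 48 h than in undifferentiated Mtf2 null cells (3.95% and 5.97% of all genes), with Cubn at 2.04 ± 0.16 and 2.76 ± 0.15 and Amn at 1.58 ± 0.27 and 3.27 ± 0.20.

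The test of that difference asks whether the genotype effect at 48 h differed from the effect in undifferentiated cells. In the endoderm series 4 members passed it, beside 2.68% of all genes called higher: the Mtf2 null effect was larger at 48 h by 2.17 ± 0.28 for Sox7, 2.73 ± 0.25 for Dab2, 4.50 ± 0.52 for Amn and 2.78 ± 0.24 for Cubn, with edgeR adjusted p of 1.39e-05, 2.14e-07, 3.06e-06 and 6.62e-08. Apoe went the other way without passing, at -0.65 ± 0.21 (adjusted p = 0.0300). In the mesoderm series Dab2 alone was called (1.22 ± 0.22, adjusted p = 7.79e-04; 1.05% of all genes), while Amn (2.66 ± 0.53, adjusted p = 0.00156) and Cubn (1.33 ± 0.25, adjusted p = 0.00105) narrowly missed the threshold and Sox7 was at 0.95 ± 0.36 (adjusted p = 0.0701). That single mesoderm call was lost without any of 5 libraries, both Mtf2 null libraries of 48 h among them, and DESeq2 called 3 members.

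Whether the treatments differed was tested as the change from undifferentiated cells to 48 h in endoderm minus that in mesoderm. No member was called by edgeR in any genotype, where 0.617% of all genes in the Mtf2 null, 1.35% in the wild type and 1.97% in the Jarid2 null were called in either direction; 9 of 18 values had an unadjusted p under 0.05, and DESeq2 called 1. Among the members in Mtf2 null cells Amn came closest, 1.68 ± 0.32 higher in endoderm with edgeR adjusted p = 0.00149, followed by Sox7 at 1.03 ± 0.27 (adjusted p = 0.0324). At 48 h the Amn level in Mtf2 null cells was 78.2 and 61 CPM in endoderm and 22.5 and 23.3 CPM in mesoderm libraries, which did not overlap. In Jarid2 null cells Cubn differed in the other direction (-1.39 ± 0.28, adjusted p = 0.00111), and in wild-type cells so did Dab2 (-1.12 ± 0.28, adjusted p = 0.0104).

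In Jarid2 null cells no member passed the threshold. By edgeR against wild type the count was 0 at every time in both series: 0.370%, 0%, 1.97% and 0.169% of all genes were called in either direction in the mesoderm series from undifferentiated to 48 h, and 0.742%, 0.0363%, 0.0312% and 0.125% in the endoderm series. DESeq2 called none either, and 8 of 24 mesoderm and 5 of 24 endoderm values had an unadjusted p under 0.05, in both directions. Amn at 48 h of mesoderm treatment had 1.80 and 1.97 CPM in Jarid2 null and 0.719 and 0.408 CPM in wild-type libraries, a log2 difference of 1.70 ± 0.42 (edgeR adjusted p = 0.0370). These libraries did not overlap, yet both were an order of magnitude below the Mtf2 null libraries. Sox7 pointed downward, at -1.29 ± 0.40 at 24 h of mesoderm (adjusted p = 0.0253) and -1.02 ± 0.27 at 48 h of endoderm treatment (adjusted p = 0.0268). Apoe in undifferentiated cells was at 0.63 ± 0.17 and 0.58 ± 0.15 (adjusted p = 0.0332 and 0.0177), and in the joint fit of undifferentiated libraries no member was called beside 1.15% of all genes, with 3 of 5 values at an unadjusted p under 0.05 and 0 called by DESeq2.

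Set directly against Jarid2 null cells, a contrast added after the values were seen, Mtf2 null cells were called higher in 5, 4, 5 and 5 members in each series, again without Ttr, from undifferentiated to 48 h, beside 5.22%, 3.95%, 5.07% and 3.79% of all genes in mesoderm and 5.30%, 3.88%, 3.43% and 5.81% in endoderm. Sox7 at 5 h was the one of these 5 genes that was not called, at 1.11 ± 0.25 and 0.86 ± 0.20. Cubn at 48 h differed by 5.27 ± 0.19 and 7.12 ± 0.19. Within Jarid2 null cells Sox7, Dab2 and Cubn were called lower between 5 and 24 h in each series (4.47% and 1.14% of all genes) and Apoe higher (5.97% and 2.59%), and between 24 and 48 h Dab2 and Cubn rose in mesoderm (4.89%) and Dab2 in endoderm (1.83%).

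The wider programme around the members was followed through 5 lists of other genes, none of which contains a member. Of all genes tested at 48 h, 1226 of 19261 in endoderm and 690 of 18361 in mesoderm were called higher in Mtf2 null cells. Whether a listed gene passed the filter on low counts only through the Mtf2 null libraries, as Ttr did, was not checked. Such a gene had to differ, so the counts by list are descriptions. At 48 h in the endoderm series, 7 of 9 tested genes (11 listed, median log2 fold change 4.85) among endoderm transcription factors were called higher in Mtf2 null than in wild-type cells, with Sox17 at 6.85 ± 0.50 and Foxa2 at 6.54 ± 0.60, both regulators of primitive or definitive endoderm. Of the basement membrane genes typical of parietal endoderm, 9 of 10 tested genes (10 listed, median log2 fold change 4.39) rose, led by Srgn (6.72 ± 0.22) and the type IV collagen genes Col4a2 (5.76 ± 0.17) and Col4a1 (5.52 ± 0.18). Of the endocytic and adaptor genes of absorptive epithelia, 7 of 10 tested genes (10 listed, median log2 fold change 2.48) rose, among them the lysosomal proteases Ctsh (6.19 ± 0.28) and Lgmn (3.21 ± 0.17).

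The secreted group moved less: 3 of 9 tested genes (18 listed, median log2 fold change 1.08) rose among plasma protein and lipoprotein genes, namely Apoa2 (5.45 ± 0.71), Apob (1.42 ± 0.25) and Apoc1 (1.08 ± 0.17), all of them apolipoproteins. Of 4 tested genes of the anterior visceral endoderm, a signalling centre, 3 rose, with Dkk1, a Wnt inhibitor, at 7.17 ± 0.32 and Lhx1 at 5.19 ± 0.75, and 1 fell, Otx2 at -2.16 ± 0.18. The median over all tested genes was -0.02 in this comparison, and no gene of the first 4 lists was called lower. In the mesoderm series at 48 h the counts were 6 of 10 transcription factors (Foxa2 4.77 ± 0.48 and Sox17 4.72 ± 0.47), 8 of 9 basement membrane, 6 of 10 endocytic and 6 of 10 plasma protein genes called higher, with Apoa2 at 7.46 ± 0.98 and Spink1, a protease inhibitor, at 6.02 ± 0.41, around an all-gene median of 0.01. In Jarid2 null cells at 48 h edgeR called no gene of the 5 lists in either series. Of all genes, only 0.169% in mesoderm and 0.125% in endoderm were called there in either direction, so this says little about the lists.

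Markers of several cell types moved with these genes. Lists are given by the lowest and highest summed level over the libraries of 48 h endoderm cultures. Their counts of called genes carry the same limit as those of the gene lists above. Of all genes, 1226 of 19261 were called higher in Mtf2 null cells there. Parietal endoderm markers summed to 5634 to 6561 CPM in Mtf2 null and 307 to 323 CPM in wild-type libraries (7 of 7 tested genes called higher), and primitive endoderm markers, which include Sox7 and Dab2, to 485 to 564 and 14.6 to 19.0 CPM (7 of 7). Definitive endoderm markers, which share Sox17 and Foxa2 with that list, summed to 64.2 to 71.8 and 12.6 to 13.3 CPM (2 of 5), and vascular endothelial markers to 98.4 to 99.2 and 47.0 to 47.8 CPM (3 of 7). Undifferentiated stem cell markers were at 1184 to 1239 and 1165 to 1253 CPM, which overlap, with 1 of 6 tested genes called higher and 1 lower. Trophoblast markers were at 49.2 to 55.8 and 11.7 to 13.0 CPM (2 of 7 called higher) and macrophage markers at 32.2 to 32.5 and 14.4 to 15.3 CPM (1 of 2), with Adgre1, Aif1 and Tyrobp at 0 in both genotypes. In such bulk libraries, more cells of a type and more RNA per cell cannot be told apart, and the part of these cell types in the levels of the members was not tested.

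**Figure D3:**
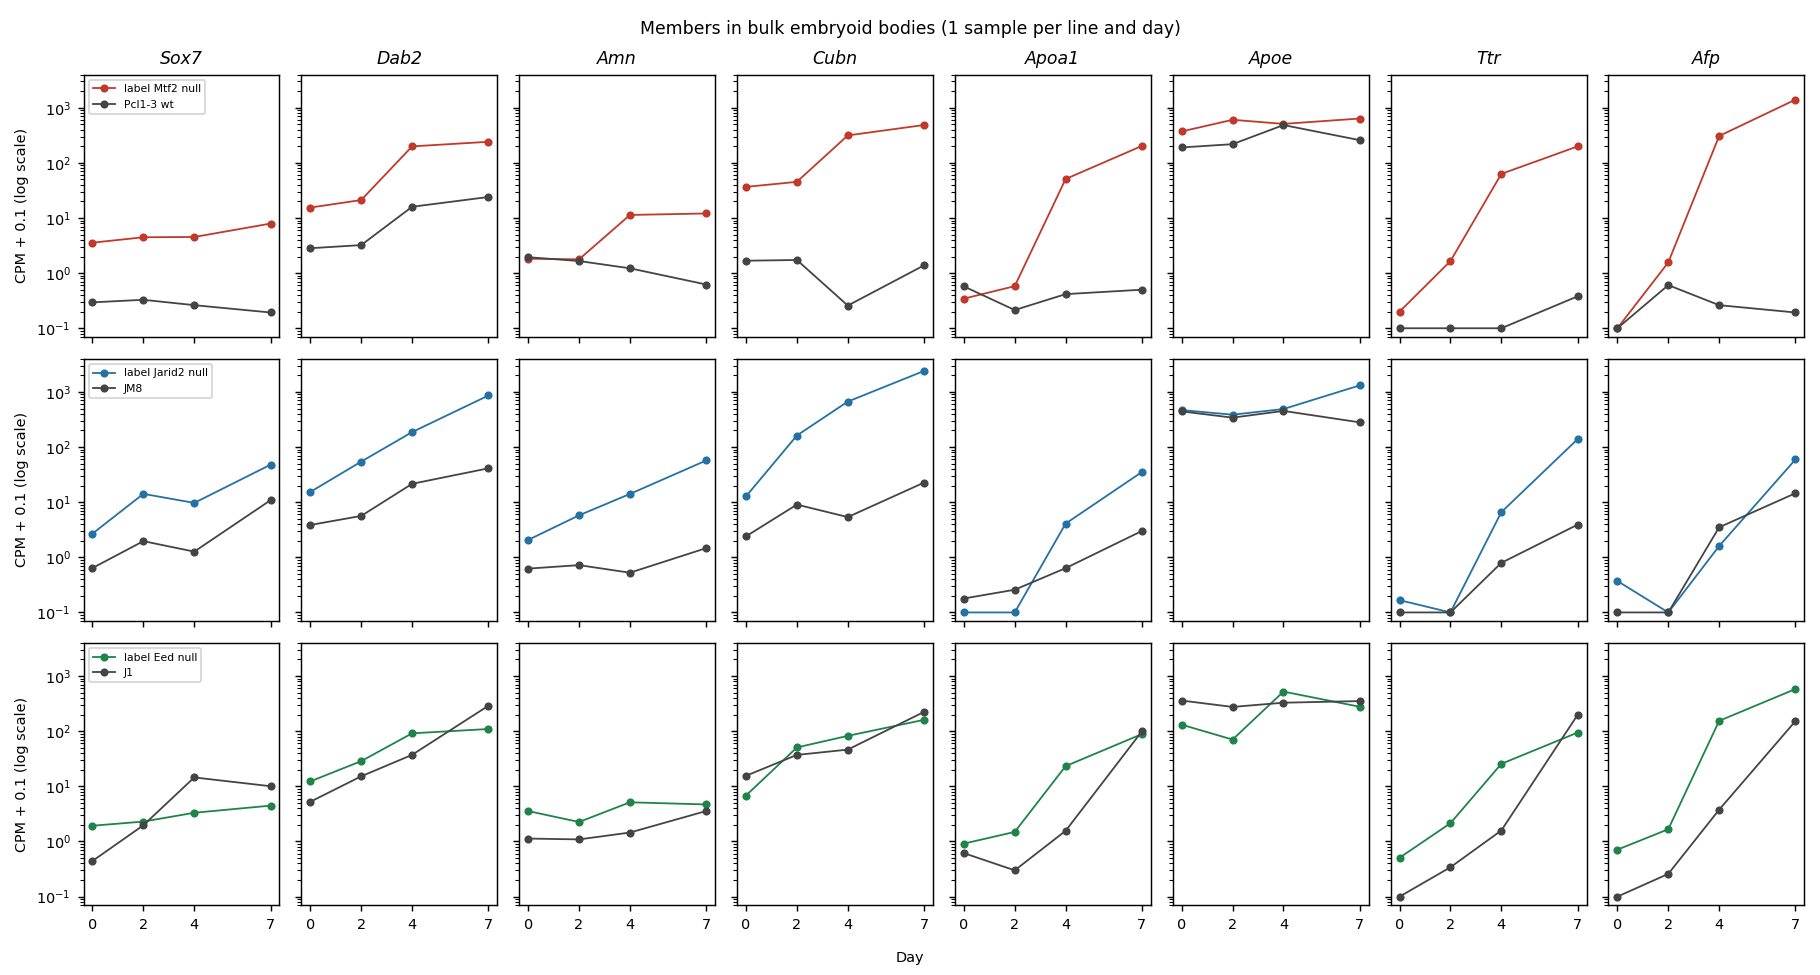
Level of each of the 8 genes (CPM with 0.1 added, log axis) in bulk embryoid bodies on days 0, 2, 4 and 7, for each labelled null line and the wild-type line it was compared with; each point is 1 sample. Apoa1, Ttr and Afp stand higher from day 4, reaching 1403 CPM for Afp in the line labelled Mtf2 null.

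In embryoid bodies the secreted members appeared too, and line by line. Each line has 1 sample per day, in most cases the average of columns named r1 and r2. The study describes its bulk duplicates as technical replicates, so the days are the only repeats used here. The p-values thus measure the spread over days within lines, not the spread between lines of the same genotype. Lines were compared with limma on log2 CPM (prior count 2) with day as a block, at an adjusted p under 0.05. Values are given in the order of days 0, 2, 4 and 7. Against Pcl1-3 wt, 6 of the 8 members were called higher in the line labelled Mtf2 null, beside 10.7% of all genes. Afp had 0, 1.46, 307 and 1403 CPM against 0, 0.506, 0.162 and 0.0931 CPM, a log2 difference of 5.43 ± 1.35 with limma adjusted p = 0.00883. Apoa1 had 0.244, 0.481, 50.8 and 203 against 0.474, 0.114, 0.316 and 0.400 CPM (3.64 ± 1.03, adjusted p = 0.0194), and Ttr 0.0999, 1.55, 63 and 199 against 0, 0, 0 and 0.279 CPM (4.57 ± 1.09, adjusted p = 0.00673). These 3 secreted products were at or near 0 up to day 2 and stood far higher on days 4 and 7 in the labelled Mtf2 null line, while Pcl1-3 wt stayed near 0.

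Cubn, Dab2 and Sox7 differed on every day. Cubn had 36.6, 45.2, 314 and 486 CPM in the line labelled Mtf2 null and 1.58, 1.63, 0.158 and 1.29 CPM in Pcl1-3 wt (6.53 ± 0.81, limma adjusted p = 2.31e-05). Dab2 had 15.4, 21.1, 199 and 241 and 2.73, 3.12, 15.9 and 23.9 CPM (2.97 ± 0.40, adjusted p = 5.79e-05), and Sox7 3.46, 4.37, 4.42 and 7.82 and 0.195, 0.228, 0.162 and 0.0931 CPM (3.23 ± 0.62, adjusted p = 0.00143). All 3 were higher in the labelled null line on all 4 days. Amn, at 1.73, 1.68, 11.2 and 12.0 against 1.85, 1.56, 1.12 and 0.521 CPM, separated only on days 4 and 7 and was not called (1.68 ± 0.62, adjusted p = 0.0629), nor was Apoe (0.95 ± 0.39, adjusted p = 0.0959). Without day 0, 7 members were called (12.8% of all genes), Amn being added.

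The line labelled Jarid2 null differed from JM8 in Sox7 and the endocytic members, with 4 called higher beside 7.53% of all genes, and 4 without day 0 (9.86%). Cubn had 12.6, 162, 667 and 2404 CPM against 2.30, 8.94, 5.27 and 22.6 CPM (5.00 ± 0.81, limma adjusted p = 4.13e-04), and Amn 1.97, 5.67, 14.0 and 57.0 against 0.523, 0.621, 0.426 and 1.37 CPM (3.29 ± 0.62, adjusted p = 0.00142). Dab2 had 15.2, 54.3, 187 and 861 against 3.76, 5.53, 21.4 and 41 CPM (3.15 ± 0.40, adjusted p = 3.00e-05) and Sox7 2.59, 14.1, 9.60 and 47.8 against 0.538, 1.86, 1.17 and 10.8 CPM (2.29 ± 0.62, adjusted p = 0.0176). The day 7 sample of the labelled Jarid2 null line held the highest Sox7, Dab2, Amn, Cubn and Apoe levels of all 24 samples. Ttr, at 0.0672, 0, 6.49 and 139 against 0, 0, 0.693 and 3.81 CPM, was not called (1.99 ± 1.09, adjusted p = 0.234), and Afp differed by 0.45 ± 1.35 (adjusted p = 0.863). In the directed series Cubn was at 1.12 to 21.5 CPM in Jarid2 null libraries; the culture and the wild-type line differ between these experiments, and the values stand side by side only.

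The line labelled Eed null did not differ from J1 in any member by limma (11.0% of all genes called in either direction, 9.42% without day 0), with no member at an unadjusted p under 0.05, whereas edgeR on the recovered reads called Afp. Afp had 0.611, 1.57, 154 and 583 CPM in the line labelled Eed null and 0, 0.158, 3.68 and 153 CPM in J1 (2.60 ± 1.35, limma adjusted p = 0.222). J1 itself made these genes by day 7, with Cubn at 15.4, 37.1, 46.3 and 224, Ttr at 0, 0.241, 1.48 and 198 and Apoa1 at 0.515, 0.20, 1.46 and 99.5 CPM, while Pcl1-3 wt and JM8 stayed far lower. Across the 12 wild-type samples, with line as a block, Dab2 (4.02 ± 0.45, limma adjusted p = 8.71e-04), Cubn (2.25 ± 0.67, 0.0350) and Afp (4.76 ± 1.38, 0.0317) were called higher on day 7 than on day 0, 3 of 6 members tested beside 13.9% of all genes; none was called in a fit without JM8. Day 0 holds undifferentiated cells and the later days aggregates, so this comparison over days also spans a change of culture. Calls in the pairs rested on the day block: without it Dab2, Apoa1, Ttr and Afp of the Mtf2 null pair and Sox7 and Dab2 of the Jarid2 null pair were lost, and without day 4 so were Apoa1, Ttr, Afp and the Sox7 call of the Jarid2 null pair.

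Single cells showed where in embryoid bodies the members were expressed. The table held 4949 cells of 16 libraries, 1 per genotype and day, in the 22 clusters that the authors had drawn at resolution 2.5, so there is no replicate and no test, and intervals (exact Poisson for a UMI sum, Clopper-Pearson for a share) cover counting error only. Levels are UMI CPM, the UMIs of a gene scaled to all UMIs of the cells in question. The members differed widely in how often they were seen: Apoe in 3797 cells, Dab2 in 474, Sox7 in 77, Ttr in 66, Afp in 54, Amn in 53, Apoa1 in 32 and Cubn in 26. Since the clusters were drawn on the same cells, the levels by cluster are a description.

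Of the 8 members, 7 were highest in cluster 21, a group of 47 cells. Its leading genes by fold over all other cells were Spink1, Srgn, Dab2, Cubn, Ttr, Ctsh, Cited1, Tmprss2, Sox17 and Apob, some of which are members. Leaving the members out of the marker lists, 4 of 5 visceral endoderm markers (all but Trf, which was at 0), 5 of 7 parietal and 3 of 5 primitive endoderm markers had their highest level there, and so had 3 of 7 definitive endoderm markers, Cer1 and the Sox17 and Foxa2 that the primitive list shares. Dab2 had 1170.4 UMI CPM (489 UMIs, 95% interval 1069 to 1279; 21 of 47 cells), Cubn 388 UMI CPM (162 UMIs, 95% interval 330.3 to 452; 9 of 47 cells) and Ttr 357 UMI CPM (149 UMIs, 95% interval 302 to 419; 11 of 47 cells). These 47 cells held 89.0% of all Cubn and 70.3% of all Ttr UMIs. Apoe had 1513 UMI CPM (632 UMIs, 95% interval 1397 to 1635; 42 of 47 cells), Amn 67.0 UMI CPM (28 UMIs, 95% interval 44.5 to 96.9; 6 of 47 cells), Afp 67.0 UMI CPM (28 UMIs, 95% interval 44.5 to 96.9; 7 of 47 cells) and Apoa1 57.4 UMI CPM (24 UMIs, 95% interval 36.8 to 85.5; 4 of 47 cells). The macrophage markers Ptprc and Csf1r had no UMI in cluster 21.

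**Figure D4:**
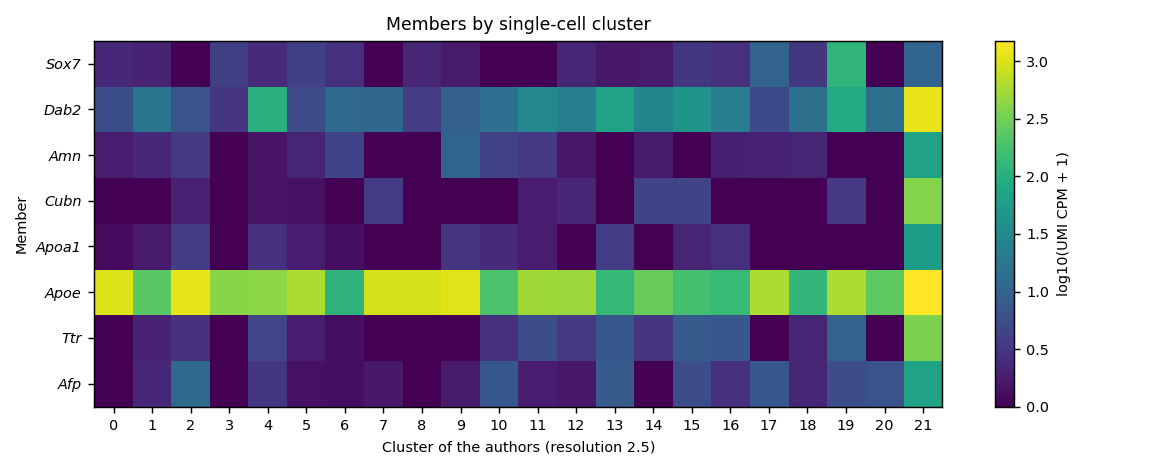
Heat map of the level of each of the 8 genes (log10 of UMI CPM plus 1) in the 22 single-cell clusters. Cluster 21 holds the highest level of every member except Sox7, which is highest in cluster 19.

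Sox7 stood apart from the other members. It was highest in cluster 19, at 118 UMI CPM (50 UMIs, 95% interval 87.5 to 155; 25 of 57 cells), and only 9.57 UMI CPM (4 UMIs, 95% interval 2.61 to 24.5; 3 of 47 cells) in cluster 21. Cluster 19 was led by Sox18, Ctla2a, Hapln1 and Kdr, and all 9 vascular endothelial markers had their highest level there. In cluster 19 Dab2 was at 87.2 UMI CPM, while Amn and Apoa1 had no UMI in its 57 cells, so that up to 5.26% of cells may hold a UMI (3 counts; this limits detection, not expression), and Cubn had 1. Dab2 was also found in cluster 4 (107 UMI CPM (233 UMIs, 95% interval 93.5 to 121; 105 of 324 cells)). The cells of both clusters had like median depths, 6159 and 6673 UMIs.

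A single cell carried much of the signal. One wild-type cell of day 7 in cluster 21, with 76012 UMIs, held 130 of 182 Cubn UMIs (71.4%), 269 of 1249 Dab2, 22 of 83 Amn and 42 of 212 Ttr UMIs, and was the only cell with UMIs of all 8 genes. Without it, cluster 21 had 93.6 UMI CPM of Cubn, 644 of Dab2, 17.6 of Amn and 313 of Ttr, and the wild-type day 7 library went from 178 to 53.2 for Dab2, from 65.9 to 4.88 for Cubn, from 12.2 to 1.95 for Amn and from 25.4 to 5.86 for Ttr. The Cubn and Dab2 levels of cluster 21 remain above those of clusters 19 and 4 without that cell. Its depth was far above the median, and whether it was 1 cell or more than 1 was not tested.

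**Figure D5:**
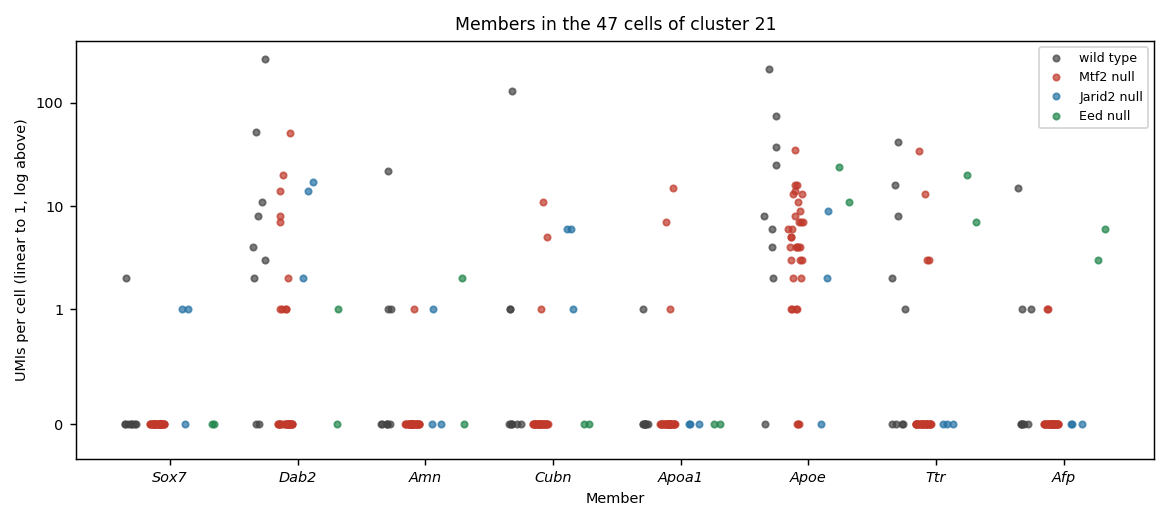
UMIs of each of the 8 genes in each of the 47 cells of cluster 21 (axis linear up to 1 UMI and logarithmic above), coloured by genotype. Most cells hold 0 or 1 UMI of a member other than Apoe, and 1 wild-type cell holds 130 UMIs of Cubn and 269 of Dab2.

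Cluster 21 held cells of every genotype but differed inside. It contained 22 Mtf2 null cells of day 7 and 11 of day 10, 1, 6 and 2 wild-type cells of days 4, 7 and 10, 3 Jarid2 null cells of day 10 and 2 Eed null cells of day 7. The 22 Mtf2 null cells of day 7 had no UMI of Cubn, Ttr, Apoa1, Afp or Sox7, 1 of Amn and 18 of Dab2, the latter in 4 cells, whereas all of them held Apoe. The 11 Mtf2 null cells of day 10 had 88 UMIs of Dab2, 53 of Ttr, 23 of Apoa1 and 17 of Cubn. Few cells carried these: Ttr was in 4 of the 11, with 34 UMIs in 1 cell, and Apoa1 in 3, with 15 in 1 cell. At least 4 members were seen in 10 of the 47 cells of cluster 21 and in 4 of 4902 other cells, and 5 or more in 5 and in 1.

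By library, the secreted members were seen mostly late. In Mtf2 null cells of day 10 Ttr had 39.8 UMI CPM (86 UMIs in 32 of 321 cells), Apoa1 13.9 UMI CPM (30 UMIs in 8 of 321 cells) and Afp 15.7 UMI CPM (34 UMIs in 11 of 321 cells); in wild-type cells of that day they had 14.3 UMI CPM (20 UMIs in 4 of 214 cells), 1.43 UMI CPM (2 UMIs in 2 of 214 cells) and 1.43 UMI CPM (2 UMIs in 2 of 214 cells). A single Mtf2 null cell of cluster 21 held 15 of the 54 Apoa1 UMIs of the study, and a single Mtf2 null cell of cluster 2 held 24 of the 110 Afp UMIs. On day 7 it was Eed null and wild-type cells that held Ttr, with 17.0 UMI CPM (40 UMIs in 15 of 319 cells) and 25.4 UMI CPM (54 UMIs in 6 of 316 cells), while Mtf2 null cells had none in 344 cells, which allows up to 0.872% of cells with a UMI. Without the deep cell described above, the wild-type value was 5.86 UMI CPM. Of the 40 Ttr UMIs in Eed null cells of day 7, 27 were in 2 cells of cluster 21. No order of these genotypes is read from such values. In the wild-type day 0 library, which stands for the background, Ttr, Afp, Apoa1, Amn and Cubn had no UMI in 340 cells (up to 0.882% of cells with a UMI), at a median depth of 8447 UMIs against 5945 in Mtf2 null cells of day 10.

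Sox7 was highest in the Jarid2 null library of day 10, at 20.2 UMI CPM (35 UMIs in 20 of 264 cells), against 2.86 UMI CPM (4 UMIs in 3 of 214 cells) in wild type of that day. That Jarid2 null library gave 18 of the 57 cells of cluster 19, the cluster with vascular endothelial markers, and wild type of day 10 gave 5. The part of these cells in the Sox7 level was not tested. The Dab2 level was higher on day 10 than on day 0 in each genotype, going from 2.34 to 83.7 UMI CPM in wild type, 4.37 to 94.0 in Mtf2 null, 2.18 to 69.2 in Jarid2 null and 10.3 to 51.5 in Eed null cells. Apoe on day 0 was at 965 UMI CPM in Mtf2 null, 914 in Jarid2 null, 395 in wild-type and 124 in Eed null cells. Cells with UMIs of at least 2 of Sox7, Dab2, Amn and Cubn were 36 of 4949 (0.727%, interval 0.510 to 1.01%), by genotype 0.521% for Mtf2 null, 0.572% for Jarid2 null, 0.847% for Eed null and 0.999% for wild type, with overlapping intervals. After every cell was thinned to 2500 UMIs the share was 16 of 4457 cells (0.359%). Before thinning, 10 of the 36 cells were in cluster 21, 7 in cluster 19 and the others in other clusters.

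The genes most like each member in their levels over the 22 clusters are given with Pearson's r over the clusters and then over the 24 bulk embryoid body samples; the clusters share libraries and the samples share days, so both are descriptions. For Cubn these were Apob (0.99, 0.79), Spink1 (0.97, 0.85), Ttr (0.97, 0.77), for Apoa1 Apob (0.98, 0.93), Cubn (0.97, 0.71), Ttr (0.96, 0.99), for Ttr Cubn (0.97, 0.77), Apob (0.97, 0.96), Spink1 (0.94, 0.90) and for Afp Apob (0.89, 0.91), Ttr (0.88, 0.95), Cubn (0.86, 0.66), so members and Apob, the main protein of low-density lipoprotein, recurred. For Dab2 they were Rdx (0.92, 0.81), Plod3 (0.90, 0.80), Ctsh (0.90, 0.92) and for Amn Ltk (0.93, 0.68), Foxq1 (0.92, 0.83), Pqlc2 (0.92, 0.88). Sox7 was nearest to Myzap (0.94, 0.43), Esam (0.94, 0.74), Cdh5 (0.93, 0.73), of which Esam and Cdh5 code for adhesion molecules of endothelium. For Apoe the correlations were lower, at Cds2 (0.82, 0.63), St13 (0.81, -0.01), Atp6v1c1 (0.78, -0.04). Most UMIs of Cubn and Ttr lay in cluster 21. Cubn had UMIs in 10 of the 22 clusters, and 1 cell of cluster 21 held 71.4% of them. The r over the clusters between Cubn, Ttr, Apoa1, Afp and Apob may thus rest largely on that cluster, which was not tested.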

How the data were processed

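The authors deposited estimated counts per gene for the mesoderm and endoderm series (Bowtie2 and Salmon, rRNA-depleted libraries); most values were whole, and all were rounded here. The bulk embryoid body table that the authors deposited holds a signal, counts divided by the DESeq2 size factor of the column: whole reads were recovered in 45 of 46 columns (tolerance 0.02), and the columns of 1 line and day were averaged as 1 of 24 samples. The deposited single-cell table holds counts of unique molecules (SORT-seq, a plate-based method; Bowtie2 to GRCm38/mm10, HTSeq, filtering with scater and Seurat clusters at resolution 2.5, by the authors); 4949 of 4949 cell names were unique, and no doublets were called here.

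Groups were taken from the sample labels. The 8 genes and the gene lists were chosen with earlier results of these data known. All 8 genes were followed in every comparison, though not every value is printed, and the targeted genes served to check the labels. Listed genes are given by count, with up to 3 of the largest called changes of a list by name. For each member, the 3 genes most like it over the clusters are named (log2 of UMI CPM plus 10, genes with at least 100 UMIs). A listed gene and a promoter motif are not reported here. Counts of each series (24 libraries, 1 mean per genotype and time) were fitted with edgeR 4.0.16 in R 4.3.3 (quasi-likelihood test, TMM scaling, minimum count 10 and total 15, which kept 18361 genes in mesoderm and 19261 in endoderm), with Benjamini-Hochberg adjustment over all genes tested. CPM are TMM-scaled. Embryoid bodies were fitted with limma 3.58.1 (trend, log2 CPM with prior count 2, at least 1 CPM in 4 samples). Alternatives were DESeq2 1.42.0, upper-quartile scaling, other filters and thresholds, the replicate number as a block, single libraries, days or lines left out, and cells thinned to 2500 UMIs. The edgeR fit of the mesoderm series and the limma fit of the embryoid body lines were tested on simulated data, and the other fits were not. Replicate numbers do not pair the samples: over 66 pairs of groups, deviations of same-numbered libraries correlated at -0.18 to 0.27 in mesoderm and -0.16 to 0.20 in endoderm. Exon lengths and positions are from GENCODE release 21 of the mouse (GRCm38).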

Additional observations from a re-analysis of the deposited data

Results flagged for a closer look

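Dab2 in undifferentiated Jarid2 null cells had 1 library apart from the other 3: 4.51 CPM in mesoderm library 2 against 3.73, 3.75 and 3.84 CPM. Of 24 sets of 4 undifferentiated libraries tested for such a gap, it was the only one to pass Dixon's limit; chance alone passes about 1 in 20, and the 4 libraries are not independent. Its part in the Jarid2 null values of Dab2 was not tested beyond leaving it out, which gave no call.

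The Mtf2 null effect differed between undifferentiated cells and 48 h, by a test of the difference itself, in 5 cases. In the mesoderm series Dab2 passed, with an effect larger by 1.22 (log2) at 48 h. In the endoderm series Sox7, Dab2, Amn and Cubn passed, with effects larger by 2.17, 2.73, 4.50 and 2.78. Parietal and primitive endoderm markers rose with them, and their part in these differences was not tested.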

How the results depend on the processing

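Of 3613 values of a member under an alternative, 3444 kept their direction and side of the threshold or stayed uncalled, 90 lost and 79 gained a call, none reversed among called values, and 106 changed sign while called in neither. Counts below are members called, summed over the contrasts of a comparison, Ttr included, which passed the filter through the Mtf2 null libraries of 48 h. With each library left out in turn, Mtf2 null and Jarid2 null against wild type gave 20 to 21 in mesoderm (21 with all libraries) and 19 to 20 in endoderm (20), Mtf2 null against Jarid2 null 20 to 20 and 19 to 20 (20 each), time 20 to 24 and 23 to 27 (23 and 26), the 48 h minus undifferentiated difference 0 to 2 and 4 to 4 (1 and 4), undifferentiated cells of both series 5 to 5 (5) and endoderm minus mesoderm 0 to 1 (0). The mesoderm difference was 0 without either Mtf2 null library of 48 h, undifferentiated Mtf2 null or wild-type library 1, or wild-type library 2 of 48 h; the endoderm minus mesoderm count was 1 without undifferentiated endoderm Jarid2 null library 2, mesoderm Jarid2 null library 1 of 48 h or undifferentiated mesoderm Mtf2 null library 1. An adjusted p under 0.05 with no fold limit gave 35 and 40 for time in mesoderm and endoderm, 3 for the mesoderm difference and 4 for endoderm minus mesoderm. For the last 2, DESeq2 gave 3 and 1, no filter 3 and 2, and upper-quartile scaling 2 and 1. With the replicate block, mesoderm gave 20 in place of 21, time in endoderm 25 in place of 26, and every other comparison the same count as without the pairing. In embryoid bodies, the 10 calls of labels against wild-type lines became 4 without the day block and 6 without day 4. They became 7 with only the pair fitted, 8 without day 7 and 9 without day 2. They became 11 without day 0 and 12 with edgeR on the recovered reads. The pair fit lost calls only of members that it did not test. The 4 calls over the days in wild-type lines became 2 without J1, 0 without JM8 and 6 without Pcl1-3 wt. The cause of these changes was not tested. The share of cells with at least 2 of Sox7, Dab2, Amn and Cubn (0.727%) became 0.359% after thinning, which leaves out 492 shallower cells, 0.182% without Dab2 in the definition and 0.101% with at least 3 of the 4. Dab2 in the wild-type day 7 library (178 UMI CPM) was 66.5 as a mean over cells, 141 over all wells and 53.2 without 1 cell, the last chosen after seeing the data, as was the summing of undifferentiated libraries. Depth limits Apoa1, Afp and wild-type Ttr in the directed series.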

Other observations

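Undifferentiated cells of the directed series and the day 0 samples of the embryoid body experiments, also undifferentiated cells, can be set side by side. Cubn had 164 to 206 CPM in undifferentiated Mtf2 null bulk libraries, 36.6 CPM in the day 0 bulk sample labelled Mtf2 null, and no UMI in 347 single Mtf2 null cells of day 0, which allows a share of up to 0.865% of cells with a UMI and sets no limit on cells that express it. Dab2 had 4.37 UMI CPM (17 UMIs in 10 of 347 cells) there, and Amn 0.771 UMI CPM (3 UMIs in 3 of 347 cells). The bulk libraries are depleted of ribosomal RNA and cover whole transcripts, whereas the single-cell libraries count transcript ends, so that the levels are not on 1 scale.

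Eed null cells of day 4 were the library with the most cells holding Amn, 18 of 320 (21 UMIs), while Cubn had no UMI in the same 320 cells. Ttr had 17.0 UMI CPM (40 UMIs in 15 of 319 cells) in Eed null cells of day 7 and Afp 11.5 UMI CPM (27 UMIs in 17 of 319 cells). In Jarid2 null cells of day 10, Cubn had 8.07 UMI CPM (14 UMIs in 4 of 264 cells) and Ttr 1.15 UMI CPM (2 UMIs in 2 of 264 cells).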
